A study of Mus musculus with 8 samples.

Results

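The genes described here are those of the late steps of MHC class II peptide loading: H2-DMa, H2-DMb1 and H2-DMb2, the chains of H2-DM; H2-Oa and H2-Ob, the chains of H2-O; and Ifi30. They were taken by symbol from the gene tables of the libraries, and all 6 were found among 32285 genes. An MHC class II molecule leaves the endoplasmic reticulum with the invariant chain (Cd74) in its groove, and endosomal proteases trim that chain to the short CLIP fragment. H2-DM, a heterodimer of an alpha and a beta chain, then pries CLIP out and edits the peptides that replace it. H2-O is its non-classical partner, known mainly from B cells, binds H2-DM and restrains it, and is known to be low in germinal centre B cells. Ifi30, also called GILT, is a thiol reductase that opens the disulphide bonds of proteins in the endosome so that they can be cut into peptides.

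Spleens of 2-month-old mice were read in 8 single-cell libraries, in 4 groups of 2, one library of each group per batch. The cKO mice were Eif3e fl/fl with Cγ1Cre and the Rosa26-YFP LSL reporter, and the controls carried Cγ1Cre and the reporter without the floxed gene, so Cre and YFP were common to all groups. The labels name no immunization. Each genotype was sampled as total live splenocytes and as sorted YFP+ cells. Cγ1Cre turns on in activated B cells, where the γ1 heavy-chain locus is transcribed, YFP marks cells with a history of Cre and not cells that are activated at the moment of sorting, and total splenocytes hold B cells in which Cre never acted as well as T cells and dendritic cells. Each library was a pool of mice, and the p-values measure the spread between such pools.

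Libraries held 71894780 to 105224903 unique molecular identifiers (UMIs), with medians of 5250.0 to 6810.5 UMIs per barcode that passed the filter, and 83704 of 83967 barcodes passed. Any pair of libraries shared 51 to 102 barcode sequences, at most 0.974% of a library. Cell classes were rebuilt by clustering without the 6 genes and without the pathway genes listed further on, and named from markers ("-like"). The markers of the naive B-like, pre-GCB-like (activated B cells before the germinal centre) and GCB-like (germinal centre B) classes were above 0 in every library with the class, and 13 of 14 conventional dendritic cell (cDC) markers were, with Clec10a at 0 in 1 library. A sum over many cells is above 0 easily, so this does not show that a marker is particular to its class. Naive B-like cells came mostly from cluster 0 in control libraries (94.7% of the class in total and 92.1% in YFP+ cells) and mostly from cluster 1 in cKO libraries (84.0% and 94.7%). In a clustering without centring of the batches, Xist was the first leading gene of the largest naive B cluster. That cluster held 162 control and 3599 cKO cells of the total sort, and 225 and 6027 of the YFP+ sort. The sample titles give no sex of the mice, and the part of sex in the genotype differences was not tested. Eif3e itself stood at 203 and 265 CPM (the share of a class sum's UMIs, scaled as CPM) in control and 285 and 374 CPM in cKO YFP+ naive B-like cells, at 279 and 294 against 156 and 162 CPM in YFP+ pre-GCB-like cells, and at 263 and 297 against 269.6 and 307 CPM in YFP+ GCB-like cells. Among these 3 classes the cKO libraries were lower in the pre-GCB-like class. The sources used here do not say which exons are deleted, and a 3′ tag outside them checks nothing.

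In GRCm38, with the GENCODE vM21 annotation, the H2-DM and H2-O genes lie on the plus strand of the MHC region of chromosome 17: H2-Oa (ENSMUSG00000024334) at 34092340 to 34095234, H2-DMa (ENSMUSG00000037649) at 34119541 to 34139101, H2-DMb2 (ENSMUSG00000037548) at 34143307 to 34151555, H2-DMb1 (ENSMUSG00000079547) at 34153072 to 34160230, and H2-Ob (ENSMUSG00000041538) at 34238903 to 34254414. Ifi30 (ENSMUSG00000031838) lies on chromosome 8, minus strand, at 70762774 to 70766663. H2-DMb1 and H2-DMb2 are copies of one another: 84.4% of the H2-DMb1 transcript lay in blocks shared with H2-DMb2, with a longest identical run of 221 bases, and in the last 500 bases, which 3′ tags read, 58.6% did, with a longest run of 34 bases, so the split of UMIs between them is uncertain to the extent that the authors' counting could not place a read. H2-Oa lies wholly within the antisense gene BC051537, and how the counting treated strand could not be read from the labels or methods. BC051537 itself was given 63 UMIs in the naive B-like cells of the first control total library, where H2-Oa had 2427.

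MHC class II promoters carry a module of boxes that the transactivator Ciita reads through DNA-bound factors, among them an X2 box bound by CREB-type factors and a Y box bound by NF-Y. The cores TGATG (X2) and ATTGG (Y) were searched in the 200 bases before each RefSeq start (build GRCm38.p6). Of 32851 such windows, 28.5% held TGATG and 29.3% held ATTGG on either strand, and 0.770% held TGATG followed by ATTGG within 40 bases on the gene's strand. The 4 windows below are shown because they hold a Y core on the gene's strand close to the start, and 3 of them hold the pair. Capitals mark the cores, and in H2-DMb1 there are 2 overlapping X2 cores.
H2-DMb1, chr17:34152991-34153190, plus strand: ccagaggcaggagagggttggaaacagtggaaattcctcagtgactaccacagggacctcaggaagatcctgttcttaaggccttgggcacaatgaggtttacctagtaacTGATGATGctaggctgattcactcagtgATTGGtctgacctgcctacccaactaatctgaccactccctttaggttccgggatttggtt
H2-DMb2, chr17:34145049-34145248, plus strand: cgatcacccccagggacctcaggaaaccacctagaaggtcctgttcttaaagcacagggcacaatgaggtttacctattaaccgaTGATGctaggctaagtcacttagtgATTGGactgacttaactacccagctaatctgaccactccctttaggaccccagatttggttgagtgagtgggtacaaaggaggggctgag
H2-Ob, chr17:34238705-34238904, plus strand: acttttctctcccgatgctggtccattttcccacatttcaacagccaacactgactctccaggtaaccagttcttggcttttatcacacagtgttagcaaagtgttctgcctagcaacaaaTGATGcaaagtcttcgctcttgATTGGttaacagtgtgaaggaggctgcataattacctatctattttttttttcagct
H2-Oa, chr17:34092179-34092378, plus strand: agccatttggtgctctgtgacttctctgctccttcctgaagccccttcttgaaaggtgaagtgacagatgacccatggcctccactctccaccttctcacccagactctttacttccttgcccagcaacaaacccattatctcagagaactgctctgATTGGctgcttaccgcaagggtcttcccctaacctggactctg
The first base of the X2 core and that of the Y core stood 25 bases apart in H2-DMb1, counted from the nearer core, 25 bases apart in H2-DMb2 and 22 bases apart in H2-Ob. The H2-Oa window held the Y core without an X2 core, and the window at the first H2-DMa start and that of Ifi30 held neither. A second H2-DMa start had both cores in the reverse order. A match is only a match of letters.

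Across the spleen the genes other than H2-Oa, which is described further on, had 3 patterns. Levels are given for the control total libraries as the mean ± SD of 2 libraries, over the 16 classes that both held. The H2-DMa and H2-DMb1 chains were highest in cDC2-like cells, at 581 ± 134 and 405 ± 135 CPM. The cDC1-like class had enough cells in 1 of these libraries only. It had 550.3 and 465 CPM there, above the 486 and 309 CPM of cDC2-like cells in that library. H2-DMb2 and H2-Ob were highest in naive B-like cells, at 687 ± 137 and 509 ± 25.1 CPM. Ifi30 was highest in mature DC-like cells, at 1194 ± 246 CPM, and in cDC2-like cells, at 1024 ± 379.5 CPM.

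H2-DMa was 357 ± 94.8 CPM in naive B-like cells, and from the second place in its order (T-bet+ B-like cells, 361 ± 24.6 CPM) to the thirteenth (pre-GCB-like, 194 ± 46.0 CPM) each class overlapped its neighbour. Plasma cell-like cells, the antibody-secreting end of the B lineage, were lower, at 69.4 ± 3.80 CPM, and T-like cells stood last at 48.1 ± 14.7 CPM. Of 15 neighbouring pairs of classes in each gene's order, 12 overlapped for H2-DMa, 9 for H2-DMb1, 12 for H2-DMb2, 13 for H2-Oa, 11 for H2-Ob and 11 for Ifi30. Most steps in these orders were therefore within the spread of 2 libraries.

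The H2-O chains differed in where they were found. H2-Oa was 243 ± 38.9 CPM in cDC2-like cells, 199.8 ± 26.5 CPM in marginal zone (MZB-like) cells and 194 ± 25.6 CPM in naive B-like cells, where MZB-like cells overlapped each of the other classes and these did not overlap each other. H2-Ob fell from 509 ± 25.1 CPM in naive B-like cells, which did not overlap the next class, to 220.3 ± 48.4 CPM in GCB-like and 194 ± 1.36 CPM in pre-GCB-like cells, and to 191 ± 12.0 CPM in cDC2-like and 49.1 ± 22.0 CPM in plasmacytoid (pDC-like) cells. H2-Oa was lower in GCB-like cells too, at 98.2 ± 24.8 CPM, and lowest in plasma cell-like cells, at 12.7 ± 5.64 CPM. These are descriptions without a test between classes.

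**Figure D1:**
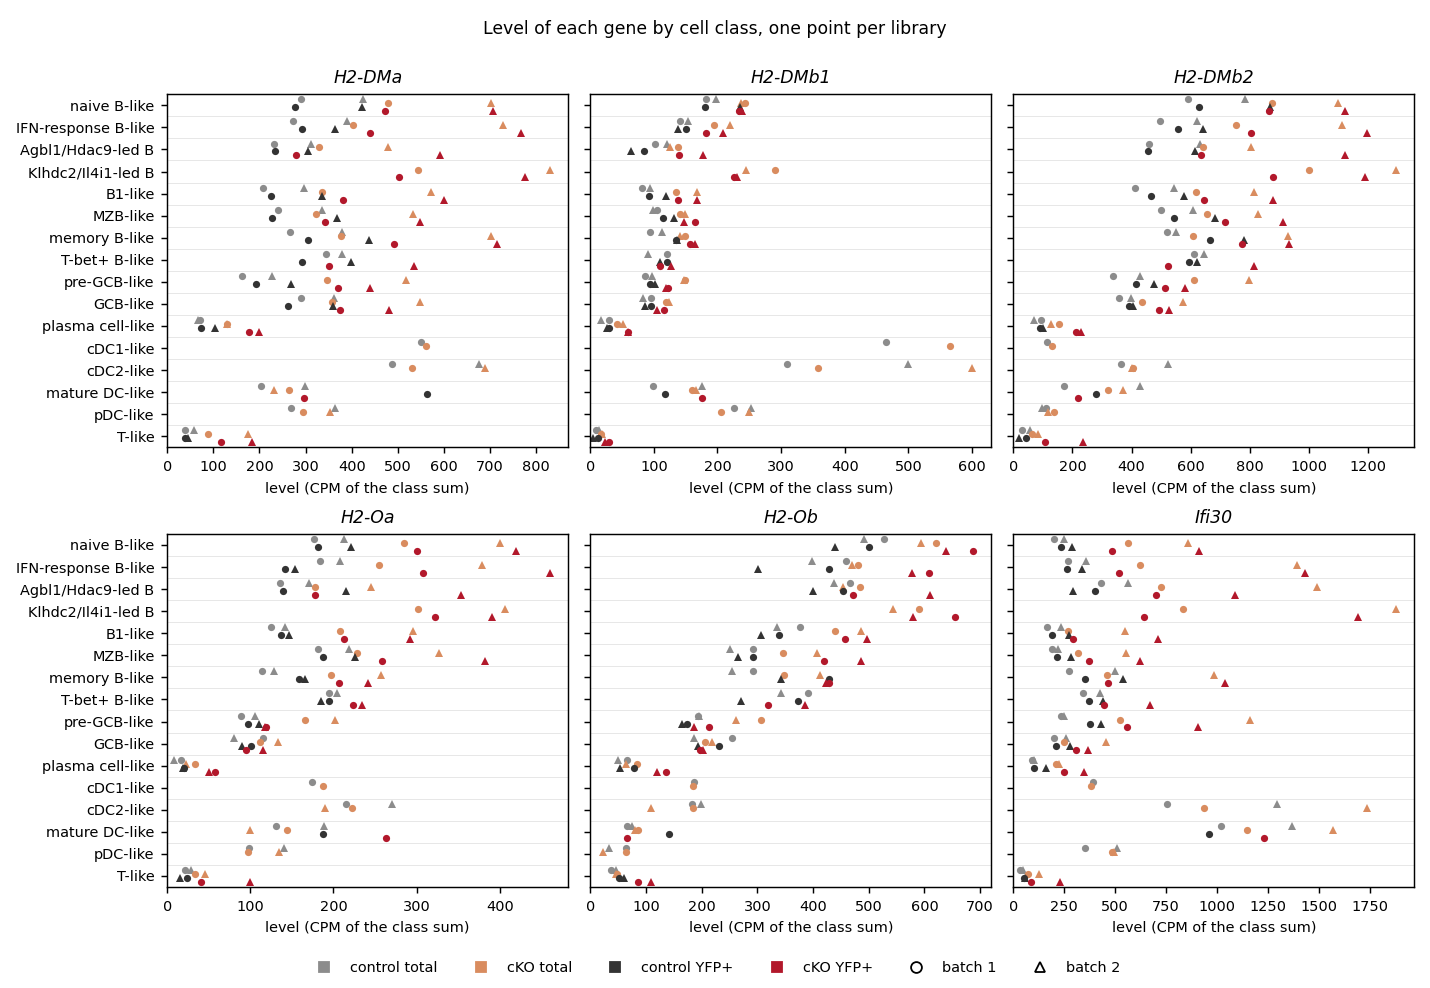
Level of each gene in CPM of the class sum (x axis) by cell class (rows), with 1 point per library that held at least 20 cells of the class, coloured by genotype and sort, circles for batch 1 and triangles for batch 2. H2-Ob is highest in naive B-like cells, Ifi30 reaches 1367 CPM in control mature DC-like cells, and in most B-lineage rows the cKO points lie to the right of the control points of the same batch.

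The beta chain in use differed between B-lineage and most dendritic cells, with only a narrow gap to mature DC-like cells. The share of H2-DMb1 among H2-DMb1 and H2-DMb2 UMIs was 17.6 to 23.5% in the 8 libraries of naive B-like cells, 15.5 to 20.4% in pre-GCB-like and 16.7 to 21.5% in GCB-like cells. It was 80.3 and 81.1% in the 2 libraries with cDC1-like cells, 59.9 to 72.5% in 4 libraries of pDC-like cells and 45.8 to 59.9% in 4 libraries of cDC2-like cells. Mature DC-like cells lay between them at 29.0 to 44.4% in 6 libraries. The YFP+ shares of this class rest on few UMIs of H2-DMb1 and H2-DMb2: 5 and 12 in control (29.4%), 16 and 20 in cKO (44.4%). No B-lineage library reached the lowest of the mature DC-like libraries, the plasma cell-like ones coming nearest at up to 28.5%. That lowest library, control total of batch 2, held 40 H2-DMb1 and 98 H2-DMb2 UMIs, so the gap is within counting error. Outside these lineages, in part from few UMIs, monocyte or macrophage-like libraries had 41.4 to 83.3%. NK-like libraries had 15.4 to 33.3% and T-like ones 9.09 to 22.3%. The share is a ratio of counts of 2 genes and not of proteins, and in naive B-like cells it was 21.8% ± 2.44 against 19.8% ± 2.85 for control and cKO of the total sort and 21.8% ± 0.734 against 19.4% ± 2.66 for the YFP+ sort (SD, n = 2). Within each batch it was lower in cKO: the difference, cKO minus control, was -1.73 and -2.31 percentage points in total and -1.01 and -3.73 in YFP+ cells of batch 1 and 2. B-lineage classes did not all share this direction. In the total sort the difference was 0.358 and 0.602 points in GCB-like and 1.25 and 2.27 points in B1-like cells. In interferon-response B-like cells of that sort it was -1.60 and -3.30 points. With 2 libraries against 2 an exact permutation test cannot go below a two-sided p of 0.33, and none was run.

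The main question for these genes was whether they differed between cKO and control B cells, and in naive B-like cells the levels of all 6 were higher in cKO within each batch. Ifi30, the thiol reductase, was 202 and 248 CPM in control total and 561 and 855 CPM in cKO total libraries (batch 1 and 2), and 234 and 288 CPM in control YFP+ against 484 and 909.98 CPM in cKO YFP+ libraries. Every cKO library lay above every control library. Here and below, the share of all genes whose control and cKO libraries were apart was not counted. Within a batch cKO was 2.78- and 3.45-fold higher in total cells and 2.07- and 3.16-fold higher in YFP+ cells.

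H2-DMa, the alpha chain of H2-DM, was 289.97 and 424 CPM in control total and 478 and 702 CPM in cKO total cells, and 277 and 422 against 472 and 706 CPM in YFP+ cells. H2-DMb2, the beta chain that B cells mostly use, was 590.3 and 784 against 876 and 1097 CPM in total cells, and 627 and 868 against 864 and 1123 CPM in YFP+ cells. H2-DMb1, the other beta chain, was 182 and 197 against 244 and 237 CPM in total cells, and 180.3 and 235 against 234 and 239 CPM in YFP+ cells. The control and cKO ranges were apart for all 3 chains in total cells, and overlapped for both beta chains in YFP+ cells. For 2 libraries against 2, ranges that are apart have an exact two-sided permutation p of 0.33, so this alone does not single these genes out. Batch 2 was above batch 1 for H2-DMa and H2-DMb2 in all 4 groups.

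H2-Oa, the alpha chain of H2-O, was 176 and 213 CPM in control total and 285 and 401 CPM in cKO total cells, and 182 and 221 against 301 and 419 CPM in YFP+ cells. H2-Ob, its beta chain, was 526 and 491 against 621 and 594 CPM in total cells, and 499.7 and 440.2 against 687 and 639 CPM in YFP+ cells. All cKO libraries were above all control libraries for both chains. For H2-Ob batch 1, not batch 2, was the higher one in each group.

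**Figure D2:**
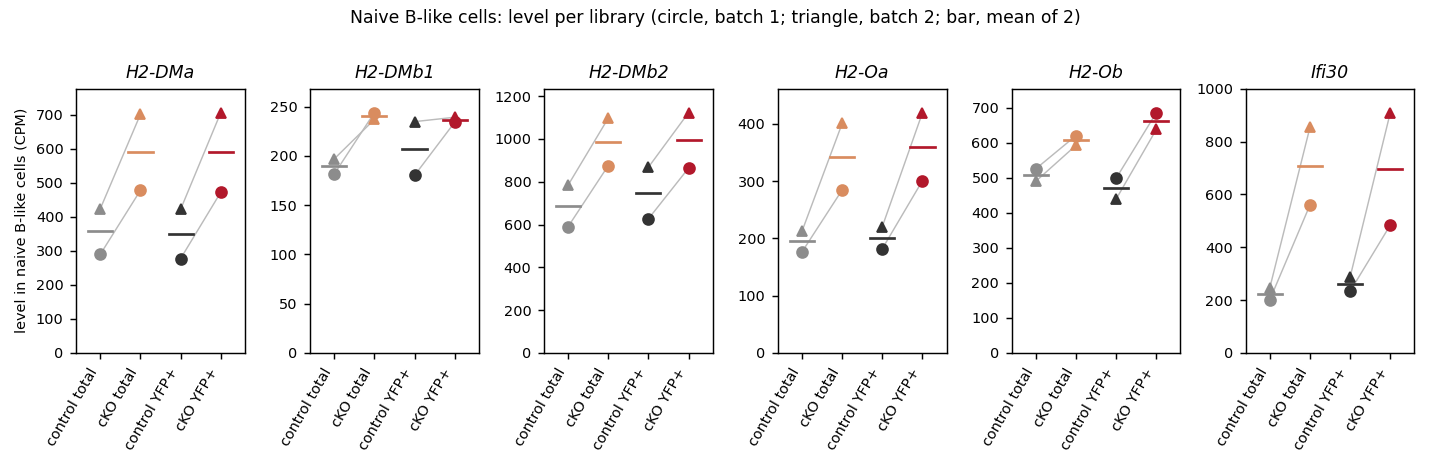
Level in CPM of the naive B-like class sum (y axis, from 0) for each gene, with 1 point per library by group (x axis; circle, batch 1; triangle, batch 2), grey lines joining libraries of the same batch and sort, and a bar at the mean of 2 libraries. All grey lines rise from control to cKO, most steeply for Ifi30, where the control libraries lie between 202 and 288 CPM and the cKO libraries between 484 and 909.98 CPM.

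By edgeR's quasi-likelihood test without a batch term, none of the 6 genes passed an adjusted p of 0.05 in either sort of naive B-like cells (2 against 2 libraries). Few genes did: the call was made for 0.312% of 11549 genes in YFP+ and 0.0568% of 12329 genes in total cells. Log2 fold changes of cKO over control in total cells were 1.75 ± 0.316 SE for Ifi30 (adjusted p = 0.188), 0.91 ± 0.280 for H2-Oa, 0.82 ± 0.328 for H2-DMa, 0.61 ± 0.286 for H2-DMb2, 0.44 ± 0.214 for H2-DMb1 and 0.35 ± 0.226 for H2-Ob. In YFP+ cells they were 1.54 ± 0.383 for Ifi30 (adjusted p = 0.205), 0.95 ± 0.304 for H2-Oa, 0.86 ± 0.358 for H2-DMa, 0.60 ± 0.259 for H2-Ob, 0.51 ± 0.325 for H2-DMb2 and 0.29 ± 0.271 for H2-DMb1. DESeq2 called 1 of the 6, Ifi30, in each sort (adjusted p = 7.6e-07 in total and 0.0011 in YFP+ cells), where it called 0.954% and 1.4% of the genes it gave an adjusted p. Leaving out 1 library at a time, YFP+ values ran from 0.47 to 1.26 for H2-DMa, 0.24 to 0.84 for H2-DMb2, 0.0642 to 0.56 for H2-DMb1 and 0.62 to 1.21 for H2-Oa, and total values from 0.46 to 1.15 for H2-DMa, 0.39 to 0.86 for H2-DMb2 and 0.59 to 1.17 for H2-Oa. The lowest was without cKO replicate 2, except for YFP+ H2-DMb1, where it was without control YFP+ replicate 1. In cluster 0 alone H2-Oa was 0.45 and H2-Ob 0.34 in YFP+ cells, and H2-DMb1 and H2-Ob were each 0.23 in total cells.

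The labels give the batch that libraries share, and with batch as a block in edgeR the calls changed. In total cells all 6 genes passed, from an adjusted p of 2.2e-12 for Ifi30 (log2 fold change 1.72 ± 0.0875 SE) and 4.7e-09 for H2-DMa (0.82 ± 0.0766) to 0.0012 for H2-Ob (0.35 ± 0.0746). In YFP+ cells 5 passed, H2-DMa at 3.0e-05, H2-Oa at 4.6e-05, H2-Ob at 0.00038, H2-DMb2 at 0.00056 and Ifi30 at 0.0027, and H2-DMb1 did not (0.31 ± 0.103 SE, adjusted p = 0.0742). The block also called many other genes, 16.4% of those tested in total and 13.3% in YFP+ cells. With so few libraries it leaves almost no degrees of freedom for a gene's own spread. These p-values therefore lean on the spread pooled over genes, and no simulation was run with the block. The fold changes themselves moved little.

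The size of the Ifi30 difference depended on which naive B-like cells were summed. In cluster 0 alone, which held most control cells, the log2 fold change was 1.00 ± 0.265 SE in total and 0.72 ± 0.301 in YFP+ cells (adjusted p = 0.769 and 1.00), and in cluster 1 alone, which held most cKO cells, it was 1.97 ± 0.354 and 1.71 ± 0.393 (0.0518 and 0.110). With the unnamed B cluster led by Klhdc2 and Il4i1 added, of which cKO libraries held between 750 and 4488 cells and control libraries fewer than 20 each, it was 2.20 ± 0.416 and 2.16 ± 0.489 (0.186 and 0.124). That cluster had Ifi30 at 831 and 1875 CPM in cKO total and 643 and 1689.9 CPM in cKO YFP+ libraries, above the naive B-like class of each. Leaving out cKO YFP+ replicate 2 took the YFP+ value of Ifi30 from 1.54 to 0.93. With 1 library left in a group, whose spread is assumed to be that of the other group, Ifi30 passed without control YFP+ replicate 2 (adjusted p = 0.0137) or cKO YFP+ replicate 1 (0.0032), and in total cells without control total replicate 1 (0.0200) or 2 (0.0020) or cKO total replicate 1 (0.00054). Summed levels of 6 stress and dissociation genes were lower in cKO naive B-like cells, at 988 to 1092 against 1521 to 2289 CPM in total and 1241 to 1266 against 1439 to 2715 CPM in YFP+ libraries. The 16 myeloid markers, of which 8 to 15 were detected, summed to 146 to 158 CPM in cKO against 194 to 249.4 CPM in control total and to 105 to 117 against 162 to 206 CPM in YFP+ libraries, with Ctsg, Clec9a and Xcr1 at 0 in all 4 YFP+ libraries. The part of these in the result was not tested.

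T-like cells of the total libraries were taken for comparison, since Cre acts in B cells. H2-DMa was 37.7 and 58.4 CPM in control and 88.7 and 176 CPM in cKO T-like cells, and Ifi30 was 33.4 and 50.1 against 73.5 and 128 CPM. These levels were under those of naive B-like cells, and they too were higher in cKO: the log2 fold change was 1.39 ± 0.405 SE for H2-DMa and 1.21 ± 0.359 for Ifi30, down to 0.11 ± 0.209 for H2-Ob. None of the 6 passed in edgeR without the block, where 1.92% of 13812 genes did, and 5 passed with it (adjusted p = 2.0e-05 for Ifi30 and 3.0e-05 for H2-DMa), where 18.1% did. The T-like level of H2-DMa was 13.0 and 13.8% of the naive B-like level in control total and 18.6 and 25.1% in cKO total libraries, that of Ifi30 16.6 and 20.2% against 13.1 and 15.02%, and those of 6 B cell markers lay between 4.46 and 11.4% in the 4 libraries. H2-DMb1 at 4.77 to 7.88%, H2-DMb2 at 5.12 to 7.55% and H2-Ob at 7.19 to 9.26% lay within the range of those markers, and H2-Oa was at 11.4 to 13.7%. T-like cells also lay in different clusters by genotype: cluster 19 held 74 control and 1071 cKO cells of the total sort, and cluster 12 held 683 and 1353. The class also held cluster 23, with a median of 11460 UMIs, which scored 1.12 for T cell and 0.53 for B cell markers. It had 348 control and 238 cKO cells of the total sort. What part these clusters, free RNA or doublets have in these T-like values was not tested.

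The share of naive B-like cells with a UMI moved with the levels. After thinning each cell to 2000 UMIs, Ifi30 was seen in 30.2 and 35.4% of control against 57.3 and 68.6% of cKO cells in the total sort, and in 34.3 and 38.8% against 53.7 and 70.0% in the YFP+ sort. Unthinned shares were 54.9 and 55.6%, 80.0 and 88.2%, 52.6 and 48.9%, and 75.4 and 87.3%, at median depths of 2853 to 5490 UMIs per cell. In T-like cells of the total libraries the thinned share was 5.46 and 7.28% in control and 9.42 and 13.6% in cKO, at median depths of 6426 to 7671 UMIs, so naive B-like cells stood above T-like cells in every total library. Thinning left out 36 of 6197, 17 of 5860, 128 of 3948 and 40 of 5454 naive B-like cells, in the same order of groups.

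**Figure D3:**
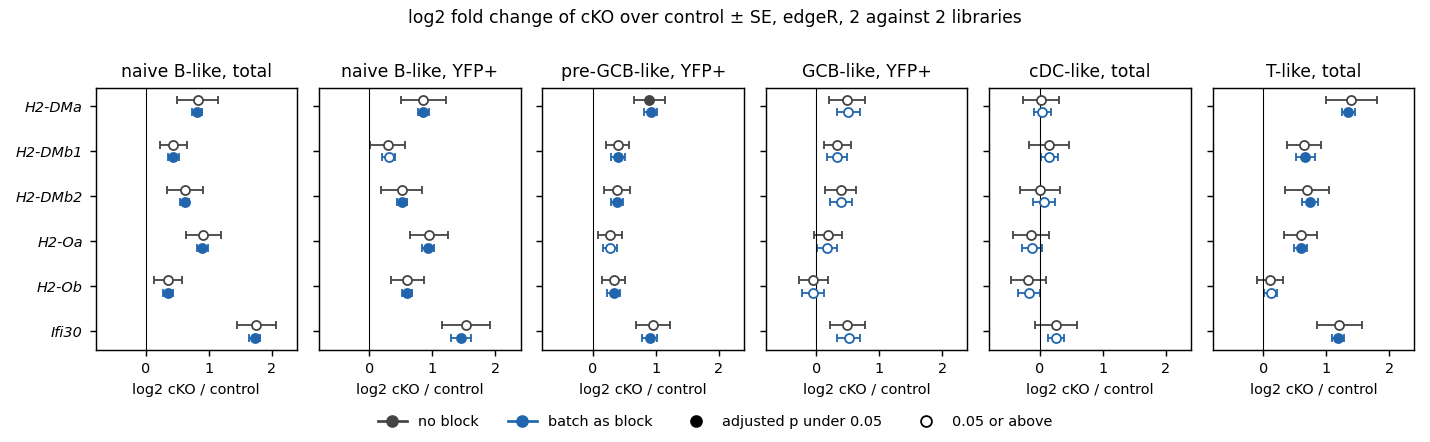
Log2 fold change of cKO over control (x axis) with its SE for each gene (rows) in 6 classes of cells, from edgeR without a block (dark grey) and with batch as block (blue), each from 2 against 2 libraries, filled where the adjusted p is under 0.05. Without the block the 1 filled point is H2-DMa in YFP+ pre-GCB-like cells (0.90), and the cDC-like values without the block lie between -0.18 and 0.25.

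In YFP+ pre-GCB-like cells, the activated B cells in which Eif3e was lower, H2-DMa and Ifi30 had the largest differences. H2-DMa was 193 and 269 CPM in control and 370.3 and 440.2 CPM in cKO libraries, and Ifi30 was 378 and 432 against 559 and 905 CPM. The control and cKO libraries were apart for all 6 genes, a split not counted over all genes. H2-DMb2 was 414 and 477 against 513 and 579 CPM, H2-DMb1 was 93.5 and 101.4 against 122 and 119 CPM, H2-Oa was 97.1 and 111 against 119 and 117 CPM, and H2-Ob was 174 and 164 against 213 and 187 CPM. The H2-O chains thus differed by less than the H2-DM alpha chain and Ifi30 did.

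H2-DMa rose by 0.90 ± 0.242 SE on the log2 scale (edgeR, adjusted p = 0.0398) and was the 1 of 6 genes called, in a class where 10.8% of 12854 genes were called. Ifi30 missed the threshold (0.95 ± 0.272 SE, adjusted p = 0.0518), and the others were between 0.27 and 0.39. Ifi30 passed in 8 of 15 alternatives, from 0.51 without cKO YFP+ replicate 2 (adjusted p = 0.593) to 2.01 at Leiden resolution 1.5 (0.0088). H2-Oa ran from 0.12 and H2-DMb2 from 0.23, both without control YFP+ replicate 1, to 0.97 and 0.90 at that resolution, where H2-Ob was 0.62. With batch as block, where 26.3% of genes were called, 5 of the 6 passed: H2-DMa (9.6e-05), Ifi30 (0.00037), H2-DMb2 (0.0120), H2-DMb1 (0.0193) and H2-Ob (0.0321), but not H2-Oa (0.28 ± 0.110 SE, adjusted p = 0.0890). Without control YFP+ replicate 1 the H2-DMa value was 0.63 (adjusted p = 0.142), and without cKO YFP+ replicate 2 it was 0.73 (0.224). The call was also lost with all 8 libraries in the model (0.92, adjusted p = 0.101), at Leiden resolution 0.5 (0.86, 0.0555) and with classes from the nearest control cells (0.97, 0.0503), and at resolution 1.5 the value was 1.62 (0.0212). Cluster 15 gave 4.07% of the class in control and 22.7% in cKO YFP+ cells and cluster 4 gave 66.2% and 37.2%, and 16 myeloid markers, of which 8 to 13 were detected, summed to 160.3 and 543 CPM in control against 75.6 and 87.2 CPM in cKO libraries, with Ctsg and Clec9a at 0 in all 4. The part of these in the result was not tested.

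In total pre-GCB-like cells, which were not tested, the same genes were higher in cKO within both batches, H2-DMa by 2.14- and 2.29-fold and Ifi30 by 2.22- and 4.66-fold. Ifi30 there was 236 and 249.1 CPM in control and 523 and 1159.95 CPM in cKO libraries. H2-Oa was 88.5 and 105 against 166 and 202 CPM, a larger difference than in the YFP+ cells of the class.

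In YFP+ GCB-like cells the H2-DM chains and Ifi30 were higher in both cKO libraries than in both controls, a split not counted over all genes. H2-DMa was 261 and 359 CPM in control and 375 and 480.2 CPM in cKO libraries, and Ifi30 was 209 and 279.6 against 309 and 367 CPM. H2-DMb2 was 391 and 406 against 494 and 526 CPM, and H2-DMb1 was 94.8 and 86.3 against 116 and 105 CPM. H2-Oa was 100.5 and 90.1 against 94.9 and 115 CPM, and H2-Ob was 231 and 193 against 197 and 202 CPM. The H2-O chains overlapped between genotypes, and cKO H2-Ob lay within the control range. None of the 6 was called by edgeR, where 1.43% of 12123 genes were, nor with the block, where 8.87% were. The log2 fold changes without the block were 0.49 ± 0.287 SE for H2-DMa, 0.49 ± 0.273 for Ifi30, 0.39 ± 0.246 for H2-DMb2, 0.33 ± 0.213 for H2-DMb1, 0.18 ± 0.224 for H2-Oa and -0.04 ± 0.226 for H2-Ob. Without control YFP+ replicate 2, H2-DMa (0.84) and Ifi30 (0.82) passed at adjusted p = 0.00584 and 0.00587, while without control YFP+ replicate 1 they were 0.21 and 0.24 and without cKO YFP+ replicate 2 they were 0.25 and 0.32, none of these called. With classes from the nearest control cells Ifi30 was 1.095 (0.0627). The 6 stress genes, of which 5 to 6 were detected, summed to 411 to 542 CPM in control and 642 to 699 CPM in cKO YFP+ GCB-like libraries, and the 16 myeloid markers, of which 5 to 13 were detected, to 121 to 189 against 95.7 to 96.9 CPM, with Ctsg at 0 in all 4. The part of these in the values was not tested.

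Whether the cKO effect itself differed between classes was tested in YFP+ cells with the library as a block, over the sums of both classes. Against naive B-like cells, the effect in GCB-like cells was smaller by a log2 difference of -0.95 ± 0.196 SE for Ifi30 (edgeR, adjusted p = 0.0060), -0.76 ± 0.161 for H2-Oa (0.0020) and -0.65 ± 0.155 for H2-Ob (0.0067), so 3 of 6 genes passed where 5.73% of 12354 genes did. The H2-DM chains did not pass, with differences of -0.35 ± 0.157 for H2-DMa, -0.13 ± 0.162 for H2-DMb2 and 0.02 ± 0.161 for H2-DMb1. In pre-GCB-like cells the effect was smaller than in naive B-like cells for H2-Oa (-0.61 ± 0.162 SE, adjusted p = 0.0047) and Ifi30 (-0.51 ± 0.162, 0.0220), 2 of 6 genes where 15.8% of 12506 passed. Without control YFP+ replicate 1 the H2-Oa and H2-Ob differences of GCB-like cells had adjusted p = 0.111 and 0.103, and the pre-GCB-like ones 0.0824 for H2-Oa and 0.313 for Ifi30. Without control YFP+ replicate 2 the adjusted p was 0.182 for H2-Ob in GCB-like and 0.163 for Ifi30 in pre-GCB-like cells, and without cKO YFP+ replicate 2 the pre-GCB-like differences had 0.205 for H2-Oa and 0.102 for Ifi30. Without cKO YFP+ replicate 1 H2-DMa passed in GCB-like cells as well (-0.51, adjusted p = 0.0386).

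In total cDC-like cells the genotype differences were within the spread of the libraries. Ifi30 was 721 and 1209.5 CPM in control and 856 and 1472 CPM in cKO libraries, H2-DMa was 433 and 597 against 478 and 581 CPM, and H2-DMb1, the beta chain that dominates in cDC1-like cells, was 329 and 490.2 against 375 and 541 CPM. H2-DMb2 was 269 and 469.8 against 356 and 394 CPM, H2-Oa was 189 and 247 against 200.1 and 198 CPM, and H2-Ob was 160.2 and 177 against 169 and 130.05 CPM. The genotypes overlapped in every gene, and batch 2 was above batch 1 for Ifi30 in both.

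EdgeR called 0 of 9397 genes in cDC-like cells (a percentage of 0). Before adjustment 176 genes had a p under 0.05, and the DESeq2 fit called 1, as did edgeR with the batch block (0.0106%), in neither case one of the 6. The log2 fold change of Ifi30 was 0.25 ± 0.3297 SE, and the interval of 2 SE around it ran from -0.40 to 0.91. For H2-DMa it was 0.03, from -0.55 to 0.60, and for H2-Oa it was -0.14, from -0.70 to 0.42. These intervals leave room for changes of the size seen in GCB-like cells. Those of H2-DMb1, H2-DMb2 and H2-Ob reached up to 0.77, 0.65 and 0.38, above the log2 fold changes of these genes in total naive B-like cells. The class held 147 and 113 cells in control and 163 and 75 cells in cKO total libraries.

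The cKO effect in naive B-like cells was larger than that in cDC-like cells of the same total libraries for 3 of the 6 genes, by log2 differences of 1.46 ± 0.168 SE for Ifi30 (edgeR, library as block, adjusted p = 1.9e-12), 1.00 ± 0.178 for H2-Oa (2.4e-05) and 0.76 ± 0.168 for H2-DMa (0.0017), where 1.3% of 12989 genes passed. The differences were 0.54 ± 0.173 for H2-DMb2, 0.51 ± 0.184 for H2-Ob and 0.28 ± 0.174 for H2-DMb1, which did not pass. Ifi30 passed without any 1 of the 4 libraries, at adjusted p of up to 0.0254. Without cKO total replicate 2 the H2-Oa difference was 0.74 (0.120), and the H2-DMa difference did not pass without control total replicate 1 (0.332) or 2 (0.270) or cKO total replicate 2 (0.255).

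In the main test sorting on YFP made little difference to these genes in naive B-like cells, but the values were loose. Leaving out 1 library moved H2-DMa from -0.38 to 0.34 in control and Ifi30 from -0.57 to 0.46 in cKO mice. Only 39% (control) and 27% (cKO) of simulated 2-fold changes were recovered. YFP+ against total log2 fold changes ran from -0.09 ± 0.255 SE (H2-Ob) to 0.25 ± 0.278 (Ifi30) in control and from 0.02 ± 0.184 (H2-DMb1) to 0.17 ± 0.196 (H2-Ob) in cKO mice. None of the 6 passed in either genotype, where edgeR called 0.017% of 11734 and 0.00825% of 12117 genes. With batch as block, where 5.4% and 16.1% of genes were called, Ifi30 passed in control (0.25 ± 0.0625 SE, adjusted p = 0.0084), and H2-Ob (0.17 ± 0.0411, 0.00072) and H2-Oa (0.12 ± 0.0429, 0.0432) passed in cKO mice.

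The difference of the genotype effect between sorts, tested over all 8 libraries, was called for 0 of 12555 genes by edgeR (a percentage of 0; 167 had p under 0.05 before adjustment, and the DESeq2 fit called 4), the 6 genes included. With genotype and batch together as block 1.42% of genes and 1 of the 6 were called, H2-Ob, whose cKO effect was greater in YFP+ than in total cells by 0.26 ± 0.0611 SE (adjusted p = 0.0309). In the H2-Ob values given above the cKO to control ratio was 1.18 and 1.21 in total and 1.37 and 1.45 in YFP+ cells of batch 1 and 2. These are the values that the fit used, so they are no separate support for it.

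Over all B-lineage classes, the tested ones included, cKO was higher than control in most pairs of the same batch. Ifi30 was higher in cKO than in control of the same batch in 18 of 18 pairs of total sums and 20 of 20 pairs of YFP+ sums, with median ratios of 2.22 and 1.95, and H2-DMa in 18 of 18 and 20 of 20, with 1.63 and 1.63. H2-DMb2 was higher in 18 of 18 and 19 of 20, H2-DMb1 in 18 of 18 and 19 of 20, H2-Oa in 17 of 18 and 19 of 20, and H2-Ob in 17 of 18 and 17 of 20. Pairs from 1 library share that library, so these are no independent counts. How many of all genes reach such counts was not computed, so the counts do not single these genes out. The ratios under 1 for the H2-O chains were lowest in GCB-like cells of batch 1, 0.945 for H2-Oa in YFP+ and 0.809 for H2-Ob in total cells.

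In marginal zone cells, too, Ifi30 and H2-DMa were higher in cKO within each batch. In MZB-like cells Ifi30 was 189.5 and 219 CPM (control) against 318 and 555 CPM (cKO) in the total sort, and 214 and 283 against 373 and 621 CPM in the YFP+ sort, and H2-DMa was 240.3 and 335 against 322 and 534 CPM and 228 and 369 against 343 and 549 CPM. H2-DMa of cKO batch 1 lay under control batch 2 in both sorts, so the ranges overlapped, while those of Ifi30 did not. Interferon-response B-like cells had the highest Ifi30 of the named B classes in cKO batch 2, at 1389 CPM in total and 1429 CPM in YFP+ libraries, against 355 and 337 CPM in the control libraries of that batch. The unnamed B cluster led by Klhdc2 and Il4i1 was higher in both of these cKO libraries, at 1875 and 1690 CPM. Another unnamed B cluster, led by Agbl1 and Hdac9, was higher in the total library (1489 CPM) and lower in the YFP+ library (1087 CPM). Plasma cell-like cells stayed lowest, with Ifi30 at 93.6 and 100.6 CPM in control total and 208 and 223 CPM in cKO total libraries.

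Levels also differed between batches. Over 39 pairs of class sums of 1 group, batch 2 was above batch 1 in 38 for Ifi30 (median ratio 1.43), 37 for H2-DMa (1.43), 37 for H2-DMb2 (1.25), 31 for H2-Oa (1.19), 23 for H2-DMb1 (1.03) and 10 for H2-Ob (0.910). The 2 batches differ in pools of mice and in library, which cannot be told apart.

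Because H2-O restrains H2-DM, the counts of the pair were also set against each other, as H2-Oa and H2-Ob UMIs over UMIs of the 3 H2-DM genes. The ratio was 0.581 ± 0.114 in control total and 0.528 ± 0.0556 in cKO total naive B-like cells, and 0.531 ± 0.138 and 0.570 ± 0.0829 in YFP+ cells (SD, n = 2). It was lower in YFP+ pre-GCB-like cells, at 0.355 ± 0.0441 in control and 0.298 ± 0.0442 in cKO, and in YFP+ GCB-like cells, at 0.388 ± 0.0786 and 0.291 ± 0.00776. Naive B-like cells thus had more H2-O per H2-DM UMI than either activated class in the mean of every group.

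Within a batch the cKO ratio was 0.668 and 0.858 times the control ratio in YFP+ GCB-like and 0.852 and 0.823 times in YFP+ pre-GCB-like cells, and 1.00 and 1.18 times in YFP+ naive B-like cells. All 4 ratios of the activated classes were under 1. Such ratios were not particular to them. The YFP+ B cluster led by Agbl1 and Hdac9 had 0.806 and 0.813, and total cDC-like cells had 0.902 and 0.795. YFP+ MZB-like cells went the other way, at 1.02 and 1.30. In total libraries the values were 0.701 and 0.894 for GCB-like, 0.886 and 0.795 for pre-GCB-like and 0.857 and 0.976 for naive B-like cells. Batch 1 had the higher ratio in all 4 groups of each of these 3 classes. Total cDC-like cells had 0.305 ± 0.0466 in control and 0.261 ± 0.0627 in cKO, and pDC-like cells had 0.257 ± 0.0190 and 0.236 ± 0.0243. No test was run on these ratios.

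**Figure D4:**
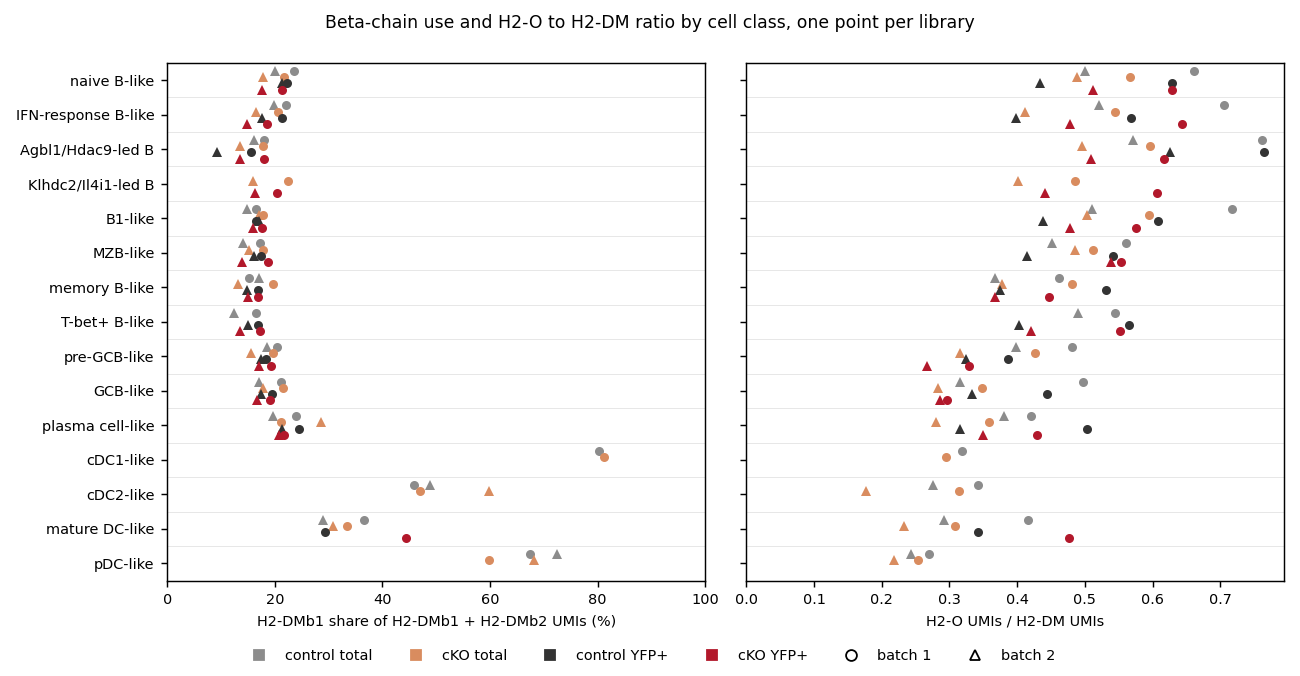
Share of H2-DMb1 in the UMIs of both beta-chain genes in percent (left x axis) and H2-O UMIs over H2-DM UMIs (right x axis) by cell class (rows), with 1 point per library, coloured by genotype and sort, circles for batch 1 and triangles for batch 2. The B-lineage rows stay at or under 28.5% H2-DMb1 and the cDC1-like row lies at 80.3 and 81.1%, and the ratio of H2-O to H2-DM reaches 0.662 in naive B-like, 0.481 in pre-GCB-like and 0.497 in GCB-like cells.

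The rest of the class II pathway was read from lists. Of 9 genes for MHC II chains and their control (H2-Aa, H2-Ab1, H2-Eb1, H2-Eb2, Cd74, Ciita, Rfx5, Rfxap and Rfxank), edgeR called 0 in naive B-like cells, where 0.312% (YFP+) and 0.0568% (total) of all genes were. All 9 had positive log2 fold changes in both sorts, with medians of 0.39 in YFP+ and 0.39 in total cells against 0.00 over all genes tested. With batch as block, where 13.3% (YFP+) and 16.4% (total) of all genes were called, 7 of 9 were called higher in each sort and 0 lower. For the pre-GCB-like class of the YFP+ sort 7 of 9 were positive (median 0.11), 0 were called and the block called 1, where 10.8% and 26.3% of all genes were. Among GCB-like YFP+ cells 7 of 9 were positive (median 0.04) and 0 were called either way, where 1.43% and, with the block, 8.87% of all genes were. In total cDC-like cells 6 of 9 were positive (median 0.03) and 0 were called, where 0 of all 9397 genes tested were.

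Of 15 endosomal proteases and their partners, 0 were called in naive B-like cells of either sort (medians 0.10 in YFP+ and 0.07 in total cells) and 0 in cDC-like cells. There 0.312% (YFP+), 0.0568% (total) and 0% (cDC-like) of all genes were called, so a count of 0 says little about this list. Among YFP+ cells of the pre-GCB-like class 4 of 15 were called, where 10.8% of all genes were, all lower, with 5 of 15 positive and a median of -0.17: Cd9, a tetraspanin, fell by 2.49 ± 0.187 SE (adjusted p = 6.1e-05), March1, the ubiquitin ligase that turns over surface class II, fell by 1.09 ± 0.214 (0.0097), and the cathepsins Ctsc and Ctsb, endosomal proteases, fell by 0.88 ± 0.179 (0.0116) and 0.85 ± 0.181 (0.0144). In this class the summed myeloid markers were also lower in cKO, at 75.6 and 87.2 against 160.3 and 543 CPM, with 3 of them called lower, and their part in these values was not tested. In YFP+ GCB-like cells 1 of 15 was called, where 1.43% of all genes were: Cd9, which fell by 2.39 ± 0.353 (0.0063).

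Of 17 genes for MHC I peptide loading, 3 were called in YFP+ pre-GCB-like cells, where 10.8% of all genes were, so the count stood near that share: Nlrc5, the transactivator of class I genes, fell by 1.31 ± 0.213 SE (adjusted p = 0.0039), Psmb9, an immunoproteasome subunit, fell by 0.83 ± 0.221 (0.0390), and Tapbpl, a tapasin-like peptide editor, was higher by 0.73 ± 0.208 (0.0491). Nlrc5 also fell in YFP+ GCB-like cells, by 1.24 ± 0.213 (0.0153), the 1 of 17 called there, where 1.43% of all genes were. None was called in naive B-like cells of either sort (medians 0.11 in YFP+ and 0.10 in total cells) or in cDC-like cells (0.02). The shares of all genes called there were 0.312% (YFP+), 0.0568% (total) and 0% (cDC-like). In T-like cells, where 1.92% of all genes were called, 1 gene of the 41 in these 3 lists was, a count near that share: Cd83, an activation marker that protects class II from turnover, which was higher in cKO by 1.41 ± 0.223 (0.0397).

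Markers of other cells were tested as well. Of 16 myeloid markers 9 could be tested in YFP+ pre-GCB-like cells and 3 were called lower, where 10.8% of all genes were called: Itgam, an integrin, fell by 3.54 ± 0.453 SE (edgeR, adjusted p = 0.0011), Tyrobp, a signalling adaptor, by 2.36 ± 0.294 (0.0012), and Mpeg1, a pore-forming protein, by 2.08 ± 0.345 (0.0055). None of the myeloid markers, the 8 T cell markers or the 6 stress genes was called in naive B-like cells of either sort or in cDC-like cells. The shares of all genes called there were 0.312% (YFP+), 0.0568% (total) and 0% (cDC-like), so the lack of calls says little. The summed myeloid markers and stress genes of naive B-like cells, given above, were lower in cKO. The 8 T cell markers summed to 29.0 to 48.2 CPM in total and 2.00 to 4.51 CPM in YFP+ naive B-like cells.

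The genes most like each of the 6 over classes and libraries were found by Pearson's r of log2(CPM + 1) over 120 class sums, among 8471 genes with a mean of at least 10 CPM. The sums share libraries, and part of the likeness is the contrast of B-lineage and dendritic with other cells. H2-DMa was most like H2-Ab1 (0.915), H2-Aa (0.911) and H2-DMb1 (0.903), and H2-DMb1 most like H2-Aa (0.915), H2-Ab1 (0.907) and H2-DMa. H2-DMb2 was instead most like H2-Ob (0.912), Snx8 (0.907) and H2-Oa (0.892), and H2-Ob most like H2-DMb2, Snx8 (0.863) and Snx2 (0.854). H2-Oa was most like Ciita (0.933), H2-Aa (0.906) and H2-DMb2, and Ifi30 most like H2-DMa (0.851), H2-Aa (0.845) and H2-Ab1 (0.844). H2-DMb1 and H2-Ob, the least alike pair of chains, had an r of 0.597.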

How the data were processed

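Libraries were made from sorted spleen cells with the SeekOne DD 3′ kit, each from a pool of mice. The deposited values are raw UMI counts per gene and barcode; per the labels the genome was GRCm38 (mm10), and the sources used here name no aligner, counting tool or strand setting. Barcodes with under 201 UMIs, under 101 genes or over 10% mitochondrial UMIs were left out. The 6 genes, the gene lists and the tests were chosen with earlier results of these data known. Cells were clustered (2000 variable genes, 30 principal components, 20 neighbours, Leiden resolution 1, centred within batch) and named from at least 3 markers. Marked doublets (0.550 to 3.21% of cells per library) were kept. Counts were summed per class and library with at least 20 cells and tested in edgeR 4.0.16 (TMM, filterByExpr, quasi-likelihood F test, Benjamini-Hochberg threshold 0.05), in R 4.3.3. DESeq2 1.42.0 was an alternative. Standard errors are the log2 fold change over the square root of F. The labels number a batch shared by libraries, and deviations from group means of same-numbered libraries correlated at 0.255 to 0.721 over 7 comparisons, so a fit with batch (for the interaction, genotype and batch together) as block was also made. List genes were named where they passed the threshold, at most 4 a list and comparison, and each gene's 3 most alike genes were named. On counts simulated from these libraries and fitted without the block the recovered shares of 2-fold and 4-fold changes were 58% and 98% for total and 25% and 95% for YFP+ naive B-like cells, 43% and 91% for pre-GCB-like, 41% and 88% for GCB-like and 28% and 88% for cDC-like cells, 39% and 94% between sorts in control and 27% and 97% in cKO mice, and 6% and 62% for the interaction. Genes simulated without a change were called too. They numbered 33 in total and 6 in YFP+ naive B-like cells, 14 in pre-GCB-like, 10 in GCB-like and 15 in cDC-like cells. Between sorts they numbered 13 in control and 8 in cKO mice, and 1 for the interaction. The T-like comparison, the single-cluster and widened naive B-like classes and the differences between classes were added after seeing the data. Replicate libraries differed beyond counting noise (chi-square per degree of freedom 7.03 to 127).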

Additional observations from a re-analysis of the deposited data

Results flagged for a closer look

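The genotype effect differed between cell classes for 8 gene and class pairs, by edgeR's test of the difference itself with the library as block. Between naive B-like and cDC-like cells of the total libraries, the cKO effect on the log2 scale was greater in naive B-like cells by 1.46 ± 0.168 SE for Ifi30, 1.00 ± 0.178 for H2-Oa and 0.76 ± 0.168 for H2-DMa. Between pre-GCB-like and naive B-like YFP+ cells the difference was -0.61 ± 0.162 for H2-Oa and -0.51 ± 0.162 for Ifi30. Between GCB-like and naive B-like YFP+ cells it was -0.95 ± 0.196 for Ifi30, -0.76 ± 0.161 for H2-Oa and -0.65 ± 0.155 for H2-Ob. Leaving out each of the 4 libraries in turn, which leaves 1 library in a group and assumes that it varies like the others, Ifi30 passed in 4 of 4 fits against cDC-like cells and in 4 of 4 for GCB-like cells. The latter difference ran from -1.32 without cKO YFP+ replicate 1 to -0.56 without cKO YFP+ replicate 2, with adjusted p up to 0.0441. The other 6 differences lost the call at least once: against cDC-like cells H2-DMa passed in 1 and H2-Oa in 3 of 4 fits, in pre-GCB-like cells H2-Oa in 2 and Ifi30 in 1, and in GCB-like cells H2-Oa in 3 and H2-Ob in 2. The naive B-like class came mostly from a different cluster in cKO than in control libraries, and the part of this in the differences was not tested.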

How the results depend on the processing

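With 2 libraries per group, both calls and fold changes moved between alternatives. Of the fold changes recomputed, 762 kept their direction and their side of the threshold, 43 gained and 17 lost a call, and 72 changed sign, and the cause was not tested. Numbers of the 6 genes called were 1 by DESeq2, 1 without the filter on low counts and 5 with the batch block in naive B-like cells of the YFP+ sort, where 1.4%, 1.98% and 13.3% of all genes were. For the total sort they were 1, 1 and 6 (0.954%, 0.441% and 16.4% of all genes). In YFP+ pre-GCB-like cells they were 2, 2 and 5 (9.38%, 9.93% and 26.3%), and 0 with all 8 libraries in the model (9.57%), 0 and 2 at Leiden resolutions 0.5 and 1.5 (10.9% and 2.55%), 2 without batch centring (11%) and 0 with classes taken from the nearest control cells (8.08%). With the block they were also 1 and 2 between sorts in control and cKO mice, 1 for the interaction and 5 in T-like cells (5.4%, 16.1%, 1.42% and 18.1% of all genes). Leaving out 1 library, so that the lone library of a group is assumed to vary like the others, gave 0 to 1 genes in naive B-like cells (0.763 to 2.22% of all genes in YFP+ and 0.519 to 1.67% in total cells), 0 to 2 in YFP+ pre-GCB-like (6.21 to 15.7%) and 0 to 2 in GCB-like cells (1.34 to 9.24%), and for the differences between classes 1 to 3 (cDC-like, 0.646 to 1.59%), 0 to 2 (pre-GCB-like, 7.95 to 14%) and 1 to 4 (GCB-like, 4 to 4.83%).

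Log2 fold changes that changed sign were all uncalled in the main test. With classes from the nearest control cells they were 0.0020 for H2-Ob in GCB-like cells, -0.0095 for H2-DMa in cDC-like cells and 0.0355 for the Ifi30 interaction. For H2-DMb2 in cDC-like cells they were -0.00012 by DESeq2 and -0.0011 at resolution 1.5. Between sorts in control mice, H2-DMa was -0.0151 without the filter, -0.0046 with the block and -0.0105 in cluster 1, H2-DMb1 was -0.0038 in cluster 1, and H2-Ob and Ifi30 were 0.0026 and -0.17 at resolution 0.5. In cKO mice, H2-DMb1 was -0.0057 with the Klhdc2- and Il4i1-led cluster added and -0.0129 in cluster 1, H2-Oa was -0.13 in cluster 0, and Ifi30 was -0.0123 with the block, -0.21 at resolution 0.5, and -0.0320 and -0.0457 in clusters 0 and 1. The interaction was -0.0098 for H2-DMa at resolution 0.5, 0.0055 for H2-DMb1 in cluster 1, and -0.0295 at resolution 1.5 and -0.24 in cluster 0 for H2-Oa.

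Leaving out 1 library, sign changed within these ranges. In GCB-like cells H2-Oa ran from -0.0052 to 0.35 and H2-Ob from -0.10 to 0.0098. In cDC-like cells H2-DMa ran from -0.20 to 0.29, H2-DMb1 from -0.14 to 0.47, H2-DMb2 from -0.35 to 0.48, H2-Oa from -0.33 to 0.0758 and Ifi30 from -0.18 to 0.69. Between sorts in control mice H2-DMa ran from -0.38 to 0.34, H2-DMb1 from -0.0855 to 0.39, H2-DMb2 from -0.15 to 0.41 and H2-Oa from -0.11 to 0.26. In cKO mice H2-DMa ran from -0.35 to 0.42, H2-DMb1 from -0.0531 to 0.10, H2-DMb2 from -0.21 to 0.29, H2-Oa from -0.21 to 0.45 and Ifi30 from -0.57 to 0.46. For the interaction H2-DMa ran from -0.36 to 0.45, H2-DMb1 from -0.37 to 0.12, H2-DMb2 from -0.37 to 0.22, H2-Oa from -0.30 to 0.37 and Ifi30 from -0.83 to 0.21. Of the differences from naive B-like cells, H2-DMa ran from -0.0697 to 0.27 and H2-DMb2 from -0.21 to 0.0103 in pre-GCB-like cells, and H2-DMb1 from -0.22 to 0.18 and H2-DMb2 from -0.32 to 0.0644 in GCB-like cells. No cDC-like class was found at resolution 0.5, and YFP+ libraries had too few cDC-like cells for a fit over all 8 libraries.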
